A study of Rattus norvegicus with 12 samples.

Results

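The 6 libraries made from performing rats fell on 2 sides of a gap in one gene, Cdhr1, the cadherin-related protein whose RNA marks the mitral and tufted cells of the olfactory bulb. Of the 12 libraries of the series, 3 performing libraries had more than 4000 normalized reads of Cdhr1 and are called bulb-rich here, and 3 performing libraries had fewer than 2000 and are called bulb-poor. The sides were therefore chosen by a measured value, and every difference between them is given as a description, without a test, a standard error or a p-value. The 6 nonperforming libraries are set beside them for reference.

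All 12 libraries came from medial prefrontal cortex of Wistar rats, in 4 groups of 3. Performing rats had been trained and tested in an operant task of attention, and nonperforming rats of the same age had been placed in the same context without the task. Young rats were 3 months old and aged rats 22 months old. The libraries are named by age and experience with a number that follows sample order only: YP1 to YP3 (young performing), AP1 to AP3 (aged performing), YN1 to YN3 (young nonperforming) and AN1 to AN3 (aged nonperforming). The bulb-rich side held YP2, AP1 and AP3 and the bulb-poor side held YP1, YP3 and AP2, so both ages were on each side. The labels do not say whether each library was 1 rat, and p-values then measure only the spread between these samples, which may be technical.

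The olfactory bulb lies directly in front of the frontal cortex. Its mitral and tufted cells are the glutamatergic output neurons, its periglomerular cells include the dopamine neurons of the glomerular layer, and its granule cells are GABAergic interneurons that keep being added in the adult. Olfactory sensory axons enter through an outer nerve layer wrapped by ensheathing glia and covered by meninges. In bulk tissue, fewer cells of a type and less RNA per cell cannot be told apart.

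Values are read counts divided by a size factor of the library, written below as normalized reads, and differences are between means of log2(normalized reads + 1). Bulb-rich libraries held 22189094 to 25366318 reads, bulb-poor libraries 22338950 to 42205582 and nonperforming libraries 22597857 to 36657127. Genes encoded by the mitochondrial genome took 21.67% to 27.58% of the bulb-rich, 19.37% to 20.68% of the bulb-poor and 10.75% to 20.07% of the nonperforming libraries, so their share was highest on the bulb-rich side, and its part in the differences below was not tested. YN3 stood apart, being the highest of the 12 libraries for 4089 genes and the lowest for 4140, with a median Spearman correlation to the other libraries of 0.93 against 0.974 to 0.988 for the rest. Slc17a7, a vesicular glutamate transporter listed with the cortical excitatory genes, was at 21900 normalized reads or more in each of the 12 libraries. Emx1 of the same list was at 271.7 to 658.7. Whether these reads came from the labelled region alone was not tested.

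Cdhr1 was at 6016, 5231 and 8405 normalized reads in YP2, AP1 and AP3. It was at 296.6, 855.5 and 1866 in YP1, YP3 and AP2, and between 317.1 and 493.2 in the 6 nonperforming libraries. The member just inside the upper bound was therefore AP1 at 5231 and the one just inside the lower bound AP2 at 1866. AP2 and YP3 lay above every nonperforming library, while YP1 lay below all of them, so the bulb-poor side was not uniform. Th, tyrosine hydroxylase, the rate-limiting enzyme of dopamine synthesis, was at 648.2, 422.5 and 883.3 in YP2, AP1 and AP3. It was at 39.41, 94.2 and 137.6 in YP1, YP3 and AP2, and at 27.65 to 73.87 in nonperforming libraries. Its order over the 3 bulb-poor libraries was the same as that of Cdhr1. Between the means of the sides, Cdhr1 was 6.51-fold and Th 7.21-fold higher in bulb-rich libraries.

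The stretches around the starts of Cdhr1, Th and Frmd7 are shown. Cdhr1 set the sides, Th stands for dopamine cells, and Frmd7 is among the 10 genes closest to Cdhr1. They run from 250 bases before to 50 bases after the start, as RefSeq gives them on GRCr8, the first listed for each symbol. Cdhr1 lies at chr16:12883530-12883829, Th at chr1:207508169-207508468 and Frmd7 at chrX:135308129-135308428, all on the minus strand. Capitals mark matches to TAATTA (the core read by many homeodomain proteins) or TGACGTCA (the cAMP response element), and CAGATG (an E-box) was searched as well, each on both strands.
Cdhr1: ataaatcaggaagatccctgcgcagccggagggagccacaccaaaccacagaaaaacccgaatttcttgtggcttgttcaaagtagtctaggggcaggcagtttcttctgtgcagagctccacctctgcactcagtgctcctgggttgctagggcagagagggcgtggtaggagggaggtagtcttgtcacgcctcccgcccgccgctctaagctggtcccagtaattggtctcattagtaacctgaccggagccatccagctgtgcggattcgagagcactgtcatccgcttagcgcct
Th: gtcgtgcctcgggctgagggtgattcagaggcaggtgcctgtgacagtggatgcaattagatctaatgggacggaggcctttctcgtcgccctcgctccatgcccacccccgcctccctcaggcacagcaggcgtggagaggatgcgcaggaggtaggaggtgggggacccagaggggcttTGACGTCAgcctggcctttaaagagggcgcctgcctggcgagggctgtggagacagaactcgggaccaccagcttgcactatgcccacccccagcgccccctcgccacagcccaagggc
Frmd7: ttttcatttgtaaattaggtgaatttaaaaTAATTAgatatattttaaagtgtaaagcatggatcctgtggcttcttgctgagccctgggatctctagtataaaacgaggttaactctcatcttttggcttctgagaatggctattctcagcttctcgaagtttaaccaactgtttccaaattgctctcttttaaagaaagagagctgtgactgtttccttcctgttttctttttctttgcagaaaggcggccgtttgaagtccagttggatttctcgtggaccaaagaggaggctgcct
The Th stretch held 1 TGACGTCA, the Frmd7 stretch held 1 TAATTA, and the Cdhr1 stretch held none of the 3. Among other genes of large difference, Sfrp5, S100a5, Stoml3, Slc6a3, Ms4a15, Spp1, Tbx21, Itga10, Pgc and Wnt6 held none either. Of the 462 genes counted higher in bulb-rich libraries (defined next), 328 had such a stretch. TAATTA was in 5.79% of these, in 2.14% of 10130 stretches of genes past the filter on low values and in 5.35% of all 27457 stretches. TGACGTCA was in 1.52%, 2.96% and 1.91% of the same sets and CAGATG in 14.9%, 10.9% and 16.3%. These are letter matches, given as a description.

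Of 13496 genes with at least 10 normalized reads in at least 3 libraries, 462 (3.42%) were counted higher in bulb-rich libraries, meaning that the 3 bulb-rich values all lay above the 3 bulb-poor values and the log2 difference was at least 1. Only 38 (0.282%) were counted lower by the mirrored rule. At any size of difference the sides did not overlap for 1751 genes (13%) with the bulb-rich libraries above and for 2047 (15.2%) with them below. The asymmetry was therefore one of size: genes below were not rarer than genes above, but few of them reached a log2 difference of 1. Among the 462 genes the median difference was 1.54, with 129 past 2 and 37 past 3, and the largest was 4.63. Among the 38 genes the median was -1.22 and the largest size 2.48, with 2 past 2. Of the 462 genes, 296 differed by at least 1 within the young and within the aged libraries, as did 11 of the 38. The rule of no overlap fixes the same direction in both ages, so nothing is read from these counts. With YP3 and AP2 left out, so that YP1 alone stood for the bulb-poor side, 781 genes were counted higher and 83 lower. They included 415 of the 462 and 24 of the 38. A side of 1 library makes no overlap easier to meet, so nothing is read from the larger counts.

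**Figure D1:**
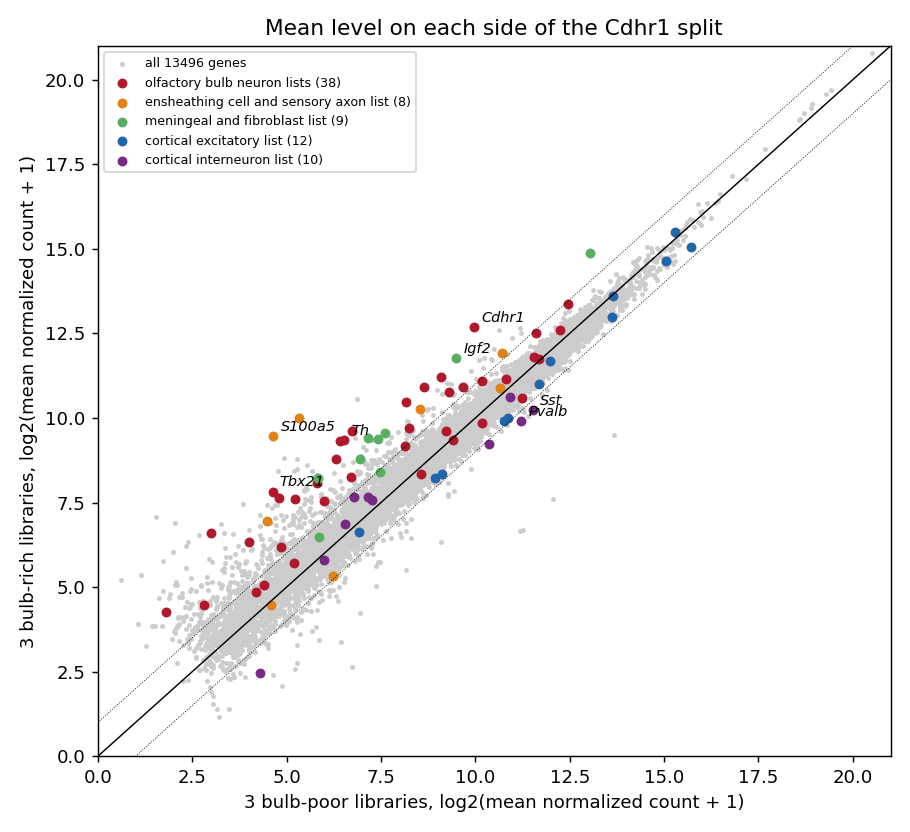
Each point is 1 of 13496 genes, with log2(mean normalized reads + 1) over the 3 bulb-poor libraries on the x axis and over the 3 bulb-rich libraries on the y axis. The solid line marks equal means and the dotted lines a log2 difference of 1. Bulb neuron, ensheathing cell and meningeal genes lie mostly above the upper dotted line, while cortical excitatory genes lie on or below the solid line with few exceptions.

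Of 16 listed mitral and tufted cell genes, the output neuron genes of the bulb, 11 passed the filter. Of these 8 were counted higher and none lower, and the list's median difference was 2.38 against -0.002 over all genes tested. The 8 include Cdhr1 itself, which set the sides, so nothing is read from this count or median. Tbx21, the T-box factor of mitral and tufted cells, was at 202.3, 201.6 and 271.7 normalized reads in bulb-rich YP2, AP1 and AP3, and at 3.941, 11.46 and 55.74 in YP1, YP3 and AP2. The nonperforming libraries held 0 to 17.18, so YP1 and YP3 lay inside that range and AP2 above it. Shisa3, of a family of transmembrane adaptor proteins, was at 693.1, 764 and 892.2 in the bulb-rich and at 51.24, 120.9 and 143.5 in the bulb-poor libraries, in the same orders. Ebf3, an early B-cell factor family transcription factor, was at 76.88, 66.77 and 94.85 against 4.927, 19.73 and 20.16. Barhl2, a homeobox factor, was at 22.47, 12.84 and 18.77 against 0, 5.092 and 2.372. It reached 10 only in the bulb-rich libraries and so passed the filter on low values only through them. Nmb, the neuropeptide neuromedin B, at 245.3 to 304.3 against 51.24 to 59.3, and Doc2g, a double C2-domain protein, at 1211 to 1787 against 188.4 to 436.4, were also counted higher. Tbr1 did not follow: it is a T-box factor of bulb output neurons but also of deep-layer cortical neurons, and its values of 743 to 1029 in bulb-rich and 752.4 to 1401 in bulb-poor libraries overlapped.

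Genes of periglomerular and dopamine cells were counted higher in 7 of the 12 listed, where 3.42% of all genes were. None was counted lower, and the median difference was 1.75. Slc6a3, the dopamine transporter, was at 83.98, 56.5 and 146.2 in the same bulb-rich libraries, and at 0, 3.183 and 17.79 in YP1, YP3 and AP2, against 0 to 4.942 in nonperforming libraries. Outside the bulb-rich libraries it reached 10 only in AP2, too few to pass the filter without them. Trh, thyrotropin-releasing hormone, was at 581.9, 498.2 and 851.7 against 20.69, 113.3 and 119.8. Sp8, a zinc-finger factor of bulb interneurons, was at 138.4, 174.6 and 285.5 against 16.75, 33.1 and 30.84. All 3 genes separated the sides, as did Calb2 (calretinin, a marker of a large periglomerular class), at 1567, 1767 and 2409 against 235.5, 437.3 and 511.2. Pax6 and Sall3, factors of bulb interneuron development, were counted higher at differences of 1.05 and 1.46. Ddc, the decarboxylase of all monoamine neurons, was not counted, at 274.8 to 361.6 in bulb-rich and 223.7 to 688.1 in bulb-poor libraries. Etv1, which cortical layer 5 neurons express, was not counted either, at 3178 to 3617 and 3029 to 3463. Calb1, calbindin, was lower in every bulb-rich library, at 1188 to 1856 against 1950 to 3083.

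Granule cell and GABA genes differed less. Of 15 past the filter, 7 were counted higher, where 3.42% of all genes were, and none lower. The median difference was 0.93, and 10 had all bulb-rich values above all bulb-poor values, where 13% of all genes did. Scgn, secretagogin, a calcium-binding protein of bulb interneurons, was at 376.1, 373.7 and 572.1 in bulb-rich YP2, AP1 and AP3 and at 47.3, 113.9 and 74.72 in YP1, YP3 and AP2. Sp9, a zinc-finger factor, was at 165.6, 174.6 and 239.1 against 44.34, 29.92 and 34.39. Pbx3, a homeobox cofactor, was at 1689, 2272 and 3206 against 337, 639.1 and 649.9. These genes had little RNA in the nonperforming libraries relative to the bulb-rich ones, with medians of 46 for Scgn, 35.5 for Sp9 and 313.2 for Pbx3. Dlx2 and Dlx5, homeobox factors of GABA neurons, were counted higher at differences of 1.55 and 1.58. Genes that GABA neurons of cortex share with those of the bulb had smaller differences: Gad1, glutamate decarboxylase, was at 8691, 9196 and 13940 against 4337, 7582 and 4897, a difference of 0.93. Meis2, a homeobox factor of granule cells, was at 5061, 5529 and 6813 against 2783, 3621 and 3011, a difference of 0.88. Both separated the sides without reaching 1.

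**Figure D2:**
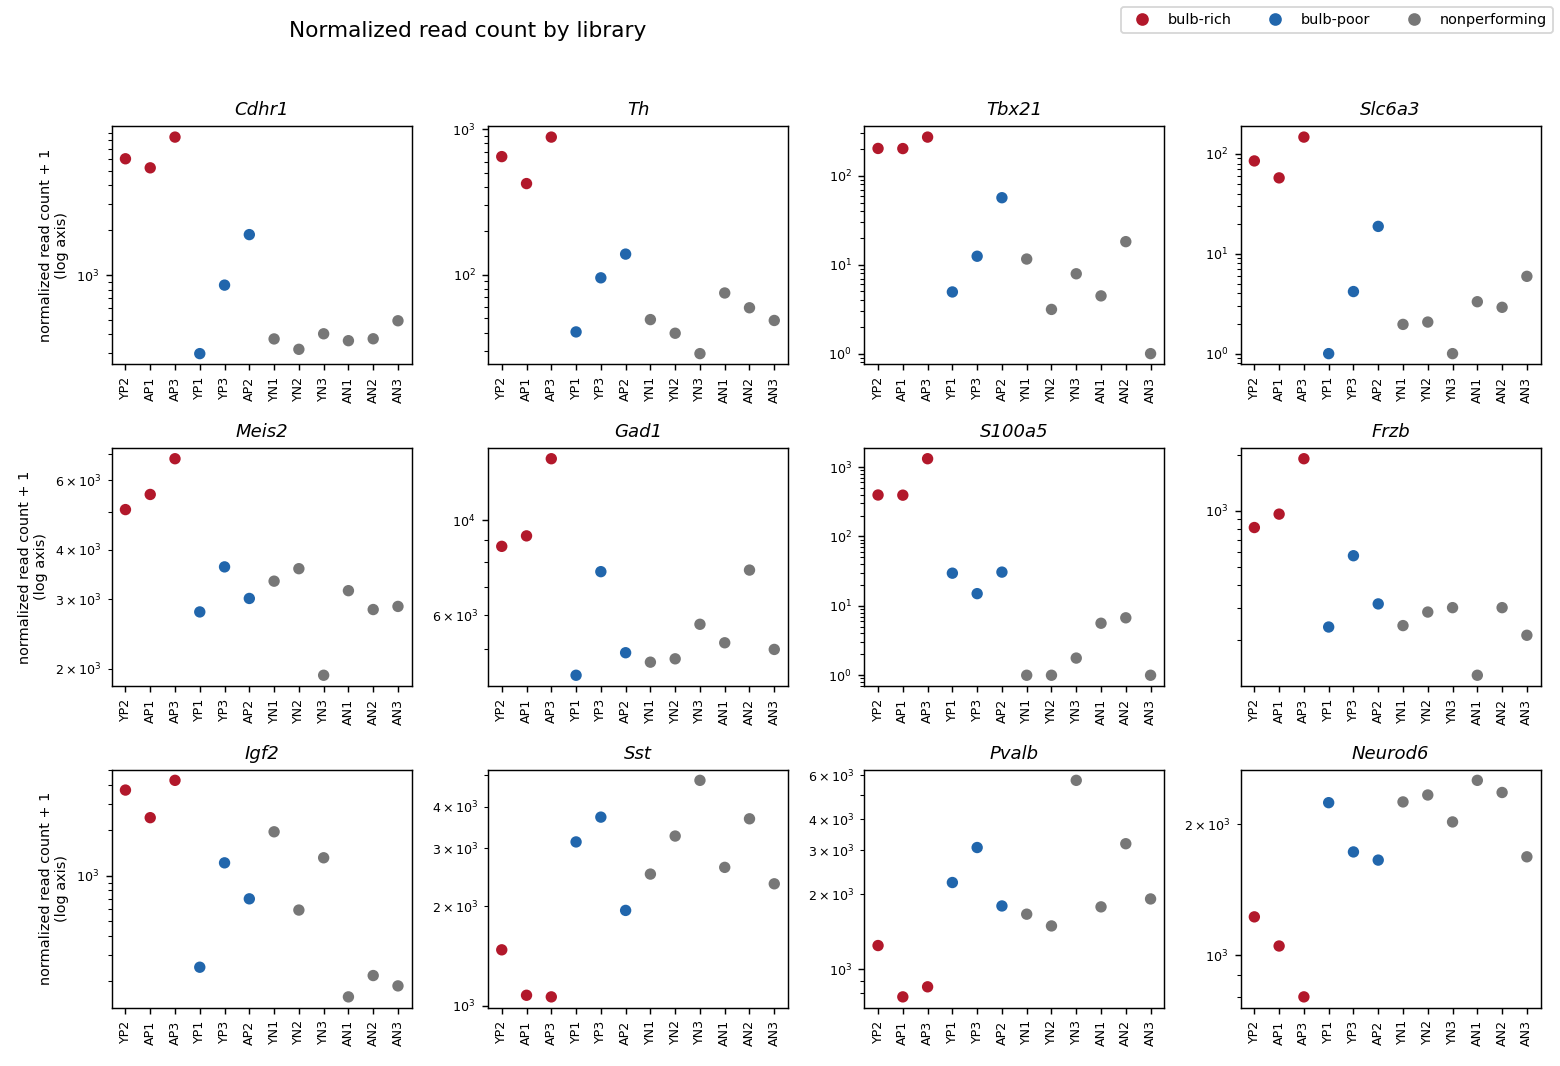
Normalized reads + 1 on a log axis for 12 genes in the 12 libraries, with bulb-rich libraries in red, bulb-poor in blue and nonperforming in grey. Each point is 1 library. Cdhr1, Th, Tbx21, Slc6a3 and Frzb are highest in the 3 bulb-rich libraries, with AP2 or YP3 above the nonperforming libraries, and Sst, Pvalb and Neurod6 are lowest in the 3 bulb-rich libraries.

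Migrating neuroblast and dividing cell genes were listed as well. Of 11 past the filter 1 was counted higher, where 3.42% of all genes were, none was counted lower, and the median difference was -0.1. Dcx, doublecortin, the microtubule protein of migrating neuroblasts, was the one, at 1597, 1858 and 2367 in bulb-rich and 644.4, 873.9 and 789.9 in bulb-poor libraries. Igfbpl1, another gene of young neurons, had a difference of 1.74 but overlapped, with YP3 at 52.83 beside bulb-rich values of 43.76, 59.07 and 60.27. Mki67, a marker of dividing cells, was low throughout, at 16.8 to 18.92 in bulb-rich and 23.65 to 45.19 in bulb-poor libraries. Stmn1, the microtubule regulator stathmin, lay lower in every bulb-rich library, at 16630, 15820 and 14480 against 22530, 26870 and 18530, a difference of -0.52 that did not reach the size to be counted. Top2a, a topoisomerase of dividing cells, overlapped.

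Genes of ensheathing glia and olfactory sensory axons included some of the largest differences. Of 8 past the filter, 5 were counted higher, where 3.42% of all genes were. None was counted lower, and the median was 1.42. S100a5, a calcium-binding protein of olfactory sensory neurons, had 395, 392.9 and 1319 normalized reads in the bulb-rich libraries. It was at 28.58, 14 and 29.65 in YP1, YP3 and AP2 and at 0 to 5.728 in the nonperforming libraries, so all 3 bulb-poor libraries, YP1 included, lay above every nonperforming one. Stoml3, a stomatin family protein of sensory neurons, was at 399.8, 927.1 and 1740 against 46.31, 20.37 and 51, with 9.984 to 38.5 in nonperforming libraries. Frzb, a secreted Wnt antagonist of ensheathing cells, was at 812.6, 960.5 and 1917 against 234.5, 571.6 and 313.1. Fabp7, the brain fatty acid binding protein of ensheathing cells and astrocytes, was at 2729, 3051 and 5893 against 1644, 1698 and 1665. AP3 had the highest value of each of these 4 genes. Prss56, a serine protease, was counted higher too, at 150.2, 62.92 and 153.1 against 14.78, 17.82 and 30.84. Ngfr, the low-affinity neurotrophin receptor of immature ensheathing and Schwann cells, was at 14.13 to 27.66 and 15.77 to 30.55 and showed no such separation.

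Meningeal and fibroblast genes were higher beside the bulb genes. Of 9 past the filter 8 were counted higher, where 3.42% of all genes were, and none lower. The list's median difference was 2.0, between those of the mitral and the periglomerular lists. Igf2, insulin-like growth factor 2, which meninges express in the adult brain, was at 3696, 2426 and 4287 in bulb-rich YP2, AP1 and AP3 and at 247.3, 1218 and 703.3 in YP1, YP3 and AP2. Ptgds, prostaglandin D synthase of the leptomeninges, was at 29440, 23670 and 37510 against 3512, 11190 and 10390. Aldh1a2, a retinoic acid synthesis enzyme, was at 822, 421.2 and 775.6 against 84.74, 164.9 and 177.9. AP1 was the lowest of the bulb-rich libraries for all 3 genes. Nonperforming libraries were not uniform either, ranging from 157 to 1956 for Igf2 and from 2356 to 18610 for Ptgds, with YN1 and YN3 at the upper end. Col1a1, a type I collagen chain of fibroblasts, was at 450.7 to 844.7 against 104.4 to 250.2, and Slc22a6, an organic anion transporter, at 196.5 to 356.7 against 19.71 to 77.09. The summed level of the list ran from 28430 to 45630 in bulb-rich, from 4320 to 13630 in bulb-poor and from 3078 to 20980 in nonperforming libraries; whether these genes came with bulb tissue or with more attached meninges was not tested.

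Choroid plexus genes separated in part. Of 8 past the filter 3 were counted higher, where 3.42% of all genes were. These were Aqp1, a water channel also present outside the choroid plexus, Clic6, a chloride channel family protein, and Kcnj13, a potassium channel. Aqp1 was at 266.1, 200.3 and 446.6 against 16.75, 36.28 and 103.2. Ttr, transthyretin, the defining secreted protein of the choroid plexus, was at 20.11, 10.27 and 91.88 in bulb-rich and 37.44, 57.29 and 7.116 in bulb-poor libraries, so it overlapped and stayed low in all 6. YN3 held 37300 normalized reads of Ttr, which sets the upper end of the nonperforming range for this list.

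Beyond the lists, the largest differences among genes with a mean of at least 50 normalized reads over the 6 performing libraries named further secreted, channel and cytoskeletal genes. Frmd7, a FERM-domain protein of the cytoskeleton, was at 328.8, 416.1 and 598.7 in the 3 bulb-rich libraries, at 7.883, 31.83 and 48.63 in YP1, YP3 and AP2 and at 2.864 to 12.85 in nonperforming libraries. Ms4a15, a membrane protein of the MS4A family, was at 300.4, 322.3 and 456.5 against 2.956, 22.28 and 88.95, with 0 to 3.463 in nonperforming libraries. Both followed the order of Cdhr1 over the 3 bulb-poor libraries. Spp1, osteopontin, was at 1219, 1174 and 2097 against 20.69, 150.9 and 175.5. Itga10, an integrin alpha chain, was at 410.4, 368.5 and 545.4 against 12.81, 31.83 and 67.6. Kcnk15, a two-pore-domain potassium channel gene, was at 280.3, 270.9 and 482.1 against 13.8, 35.01 and 30.84. Each of these 3 was higher in every bulb-rich library than in every nonperforming one, where Spp1 reached 346.9, Itga10 34.59 and Kcnk15 10.5. Eya2, a transcriptional cofactor, differed by 3.34, Mrap, the melanocortin receptor accessory protein, by 3.62, and Cpa6, a carboxypeptidase, by 3.89. Wnt6, a Wnt ligand, was at 117.1, 107.9 and 257.9 against 1.971, 34.37 and 34.39. Outside the bulb-rich libraries Ms4a15 and Cpa6 reached 10 only in YP3 and AP2, too few to pass the filter without them.

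Sfrp5 and Pgc reached 10 normalized reads only in the bulb-rich libraries and so passed the filter on low values only through them. Both were far higher in 1 bulb-rich library than in the others. Sfrp5, a secreted Wnt antagonist, was at 362.6 in AP3 but at 21.29 in YP2 and 20.55 in AP1, against 0.9854, 0 and 4.744 in YP1, YP3 and AP2. Pgc, the zymogen of a gastric-type protease, was at 319.1 in AP3, 14.19 in YP2 and 24.4 in AP1. Their ratio of AP3 to the mean of YP2 and AP1 was 17.33 and 16.54. Over the 462 genes that ratio had a median of 1.4, a 25th percentile of 1.15, a 75th of 1.75 and a 95th of 2.74, and it was over 2 for 79 genes and under 1 for 50. Cdhr1 itself, at 1.49, lay between these quartiles, and S100a5, at 3.35, lay above the 95th percentile.

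Genes counted lower in bulb-rich libraries included markers of cortical interneurons and striatal projection neurons, and 6 of the 38 were in any list. The largest differences among those with a mean of at least 50 were -1.77 for Ecel1, a neuronal endopeptidase family gene, and -1.4 for Rdh12, a retinol dehydrogenase. Rdh12 was at 22.47, 39.81 and 40.51 in the bulb-rich and at 117.3, 75.11 and 80.65 in the bulb-poor libraries, while for Ecel1 YP3 stood apart at 315.7. Leaving out YP1 gave 72 genes counted lower, leaving out YP2 gave 77 and leaving out AP2 gave 76, against 38 with all 6 libraries. Sst, the neuropeptide somatostatin of a major interneuron class, was at 1477, 1076 and 1064 in bulb-rich YP2, AP1 and AP3 and at 3133, 3724 and 1944 in YP1, YP3 and AP2. Nonperforming libraries held 2340 to 4812, so the bulb-rich values lay below all of them. Pvalb, parvalbumin of fast-spiking interneurons, was at 1244, 774.3 and 849.7 against 2226, 3075 and 1793, and below the nonperforming range of 1491 to 5717. Vip, vasoactive intestinal peptide of another interneuron class, was at 722.7, 435.3 and 639.2 against 1280, 1605 and 1027, with 940.9 to 2605 in nonperforming libraries. Chodl, which marks a rare long-range Sst class, was at 3.548, 5.136 and 4.94 against 15.77, 28.64 and 11.86, close to the filter on low values. These were 4 of the 10 interneuron genes past the filter, none of which was counted higher. Of all genes, 0.282% were counted lower. Sstr2, a somatostatin receptor, and Kcns3, a potassium channel subunit of parvalbumin cells, were also counted lower, at -1.22 and -1.1. The median of the interneuron list was -0.17, and Adarb2, an RNA-editing family gene, Sox6, a factor of interneuron development, and Htr3a, a serotonin receptor subunit, had differences of 0.88, 0.66 and 0.31.

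Cortical excitatory genes were lower by less than the size rule. Of 12 past the filter none was counted, but 9 had every bulb-rich value below every bulb-poor value, where 15.2% of all genes did, and the median difference was -0.63. Neurod6, a helix-loop-helix factor of cortical projection neurons, was at 1224, 1049 and 801.3 in bulb-rich YP2, AP1 and AP3 and at 2240, 1726 and 1653 in YP1, YP3 and AP2, a difference of -0.88. Emx1, a homeobox factor of the cortex, was at 383.2, 319.7 and 271.7 against 582.4, 610.4 and 469.7. In both genes AP3, the library of highest Cdhr1, was the lowest of the 6. Between the means of the sides Neurod6 was 1.83-fold higher in bulb-poor libraries. Camk2a, a synaptic kinase, did not follow, at 38510 to 53160 against 19590 to 50940, with YP3 the lowest.

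Deep and upper layer genes did not move one way. Of 14 deep layer genes 5 lay below at any size, where 15.2% of all genes did. Among them was Foxp2, a factor of corticothalamic cells, at 187.5 to 192.8 against 246.7 to 384.5. The deep layer genes Syt6, a synaptotagmin, at 1003 to 1424 against 506.5 to 634.5, and Nxph4, a neurexophilin, at 109.1 to 187.7 against 53.37 to 103.8, were counted higher instead. Lamp5, listed with the upper layers, lay below at 2214 to 3389 against 3787 to 6859, whereas Mdga1 lay above at 247.2 to 366.6 against 136.9 to 193.1. None of the 8 upper layer genes was counted in either direction, where 3.42% of all genes were counted higher and 0.282% lower. Nothing is read from a count this small.

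Some of the lower genes stood highest in 1 bulb-poor library, YP3. Of the 38 genes, YP3 was the highest of the 3 bulb-poor libraries for 24, YP1 for 8 and AP2 for 6. The share over all genes is not given here, so nothing is read from these counts. Drd1, the D1 dopamine receptor of striatal projection neurons, was at 93.44, 74.48 and 99.79 in bulb-rich YP2, AP1 and AP3 and at 157.7, 480.6 and 144.7 in YP1, YP3 and AP2. Pdyn, prodynorphin of the same neurons, was at 228.3, 202.9 and 185.7 against 311.4, 1241 and 315.5, and Ecel1, an endopeptidase, at 11.83, 17.98 and 23.71 against 25.62, 315.7 and 27.28. YP1 and AP2 also lay above all bulb-rich values, but YP3 held the highest value of each of these genes. YP3 also carried the highest Drd2 of the 6, 301.1 against 66.42 to 132.4, and the highest Gpr6, 193.5 against 15.41 to 27.2, both striatal receptors. The summed level of the 12 striatal genes was 9676 to 10230 in bulb-rich, 10580 to 22040 in bulb-poor and 11270 to 16780 in nonperforming libraries. The part of striatal tissue in these differences was not tested.

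Glial, vascular and immune lists added no gene by the size rule. None of 11 astrocyte, 12 oligodendrocyte, 7 oligodendrocyte precursor, 11 microglia, 7 antigen presentation and 10 vessel genes was counted in either direction. Over all genes 3.42% were counted higher and 0.282% lower, so few would be counted in lists this short. Nothing is read from these counts or from that of the immediate early genes below. Median differences were 0.22 for astrocytes, -0.23 for oligodendrocytes, 0.02 for precursors, -0.33 for microglia and -0.4 for vessels. Gfap, the astrocyte filament protein, was at 22290, 22830 and 36330 against 14600, 13940 and 33050 and overlapped through AP2. AP2 also held 38920 normalized reads of Cd74, which chaperones MHC class II molecules, where the other 5 performing libraries held 195.1 to 877.4, so the antigen presentation list was set by that library. C1qa, a complement component of microglia, was at 7950 in AP2 and 1227 to 2305 in the other 5. Immediate early genes, which neuronal activity induces, had a median of -0.12, and none of 11 was counted; Arc was at 4701 to 6947 against 5275 to 7542 and Fosb at 445.9 to 702.5 against 307.4 to 461.3. Hbb, beta globin, was at 559.2 to 1222 against 505.2 to 3841 with the maximum in YP3, and globin genes have near-identical copies, so their split between symbols is uncertain.

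**Figure D3:**
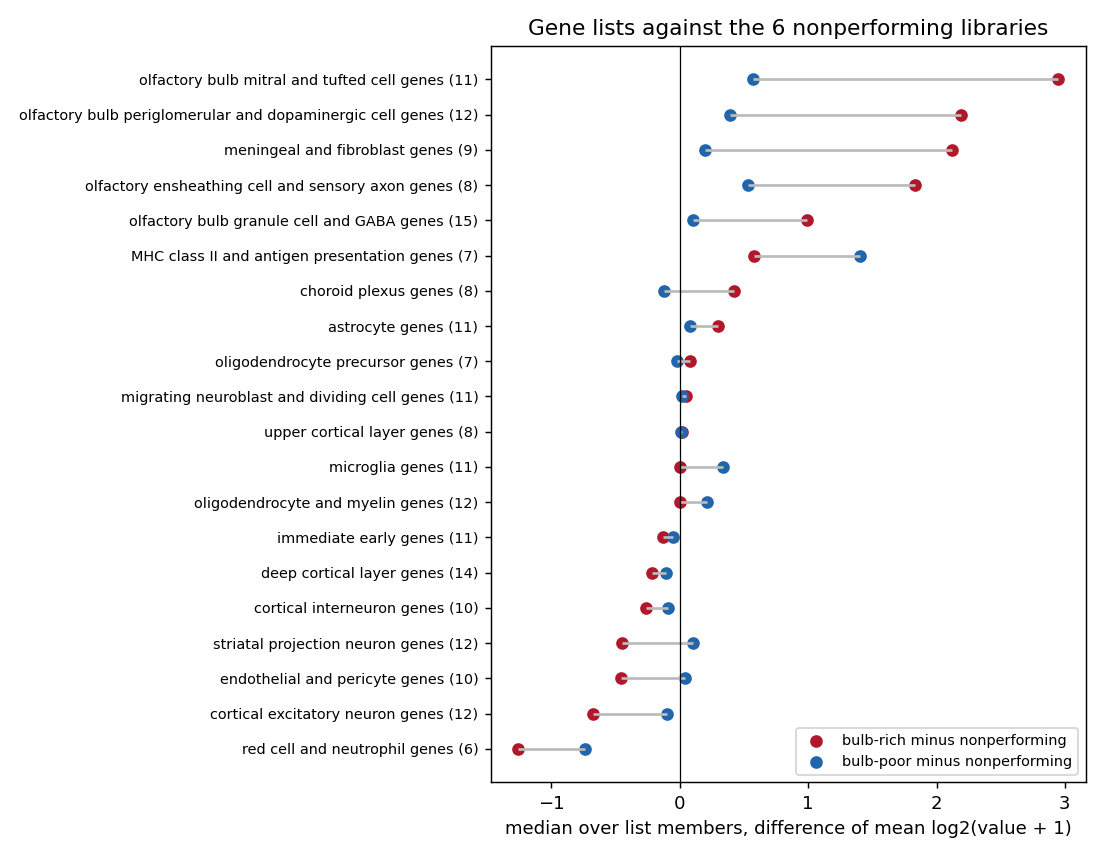
For each of 20 gene lists, with the number of genes past the filter in brackets, the median difference of mean log2(normalized reads + 1) from the 6 nonperforming libraries is shown for the 3 bulb-rich (red) and the 3 bulb-poor libraries (blue). Mitral and tufted genes are farthest apart, at 2.95 and 0.57, and cortical excitatory genes lie at -0.68 and -0.1.

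Set against the nonperforming libraries, 351 of the 462 genes were higher in all 3 bulb-rich libraries than in all 6 nonperforming libraries, where 9.18% of all genes were. Of the 38 genes 17 were below all 6, where 9.45% of all genes were. Without YN3 the first count was 379, against 14.4% of all genes. The 462 and the 38 were chosen for high or low values in the same bulb-rich libraries, so these counts are largely fixed by that choice and nothing is read from them. The rest of the 462 overlapped the nonperforming range. Kcnj13 and Clic6, for example, reached 85.25 and 166.7 in nonperforming libraries, above every bulb-rich value. Among the lists, the median of mitral and tufted genes was 2.95 above nonperforming in bulb-rich and 0.57 above in bulb-poor libraries, of periglomerular genes 2.19 and 0.39, and of granule genes 0.99 and 0.1.

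The same count was made for each bulb-poor library. YP1 was above all 6 nonperforming libraries for 27 of the 462 genes, YP3 for 75 and AP2 for 102. Over all genes the same held for 7.31%, 8.46% and 13.4%. Without YN3, the counts were 40, 109 and 128 and the backgrounds 15.8%, 27.7% and 18.6%. The 462 genes were chosen for lower values in these 3 libraries than in the bulb-rich ones, so the counts are a description and are not compared with the shares over all genes.

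A relative excess puts the genes on 1 scale: a library's value minus the nonperforming median, as a percentage of the mean of that excess over the 3 bulb-rich libraries. By construction the bulb-rich libraries average 100, which describes the choice and supports nothing. Over the 462 genes its median was 84.8% for YP2, 76.4% for AP1 and 135.1% for AP3. It was -3.0% in YP1, 3.9% in YP3 and 10.2% in AP2, and between -3.3% and 3.3% in the 6 nonperforming libraries. AP3 had the highest bulb-rich value for 362 of the 462 genes and YP2 for 72, and YP1 had the lowest bulb-poor value for 266. Mitral and tufted genes gave 19.5% in AP2, 7.5% in YP3 and -0.9% in YP1. Granule genes gave -0.7% in AP2 and 13.7% in YP3, the other order. Among bulb-rich libraries the lists also changed order: ensheathing and axon genes reached 56.2% for YP2, 67.8% for AP1 and 172.3% for AP3, while meningeal genes were at 107.0%, 60.1% and 128.4%. These differences between lists were not tested.

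**Figure D4:**
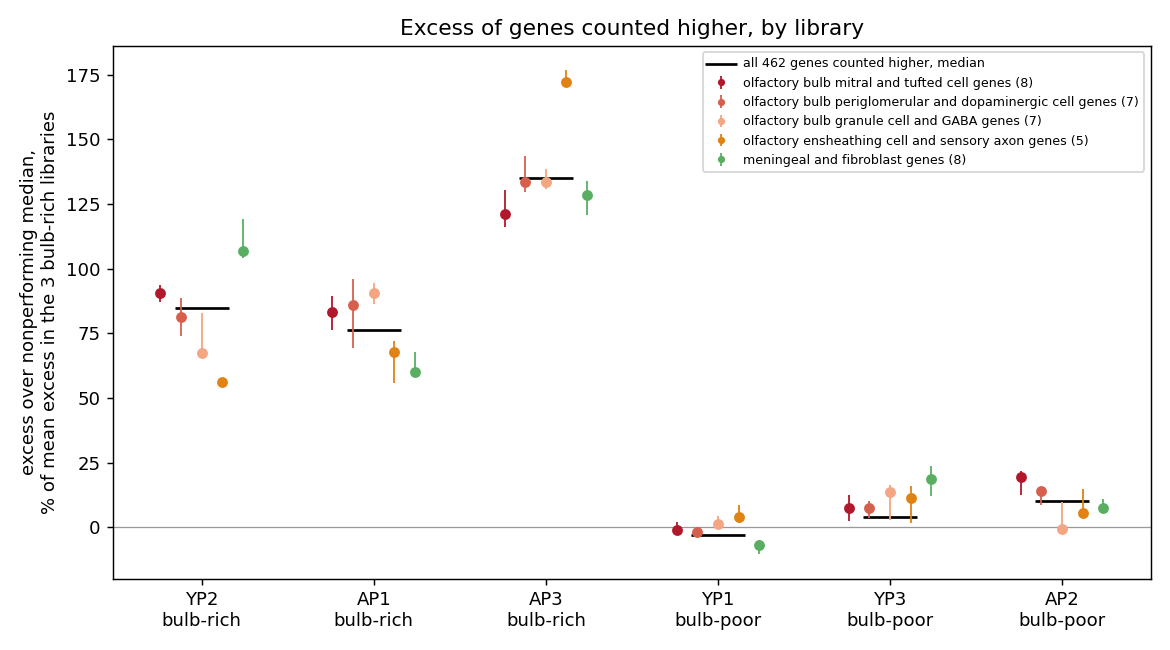
For the 6 performing libraries, the y axis gives the excess over the nonperforming median as a percentage of the mean excess in the 3 bulb-rich libraries. Points are medians over the list genes counted higher, with the number in brackets, thin lines run from the 25th to the 75th percentile of those genes, and black bars are medians over all 462 genes. AP3 has the highest bar at 135.1% and YP1 the lowest at -3.0%.

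The genes with levels most like Cdhr1 were found by Pearson correlation of log2(normalized reads + 1) over the 12 libraries, among genes with a mean of at least 50. The points share the 3 bulb-rich libraries at one end, so the values are descriptions. Itga10 had 0.98, Frmd7 0.98 and Hs3st3b1, a heparan sulfate sulfotransferase, 0.98, followed by Th at 0.97. Trdn, triadin, Fmo1, a flavin monooxygenase, and Shisa3 had 0.96 to 0.97. Trh, Car3, carbonic anhydrase 3, and Ms4a15 completed the 10. Of these 10 genes, Th, Trh and Shisa3 are in the bulb neuron lists.

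The labels' own contrasts were tested with limma over all 12 libraries, with Benjamini-Hochberg adjustment over the 13496 genes. They share the performing libraries with the choice made on Cdhr1, so no support is drawn from them for the differences above. Performing against nonperforming rats, averaged over age, gave 0 genes at an adjusted p under 0.05 (0.0%) and 1368 at an unadjusted p under 0.05 (10.1%), among them 226 of the 462 and 8 of the 38. Cdhr1 was 2.54 ± 0.61 (SE) higher on the log2 scale in performing rats, with a limma adjusted p of 0.475, and Th 2.23 ± 0.62 higher with an adjusted p of 0.475. Neither passed. The smallest adjusted p in limma was 0.0768, for Scin, an actin-severing protein, at 44.95, 71.91 and 149.2 in bulb-rich and 3.941, 5.092 and 265.7 in bulb-poor libraries. Ms4a15, Klkb1 (plasma prekallikrein), S100a5 and Ly6g6e (a Ly6 family protein) came next and did not pass either. Klkb1 reached 10 normalized reads only in the bulb-rich libraries and so entered the test only through them. Outside the bulb-rich libraries Scin reached 10 only in AP2 and Ms4a15 only in YP3 and AP2. Both therefore also passed the filter only with the bulb-rich libraries included. The edgeR quasi-likelihood test on recovered reads gave 0 genes with 1408 at an unadjusted p under 0.05, and DESeq2 gave 114 genes (0.845%), 92 higher and 22 lower in performing rats. Of these 114, 68 were among the 462, each higher in performing rats, and 0 among the 38.

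With log2 Cdhr1 as a covariate, limma left 63 genes at an unadjusted p under 0.05 for performance. Without the 3 bulb-rich libraries it left 229, where all 12 libraries and no covariate gave 1368. In both, 0 passed after adjustment. Cdhr1 is the value that set the sides, and leaving out libraries leaves fewer to test. Nothing is therefore read from either count. Age among performing rats, a contrast of 2 bulb-rich and 1 bulb-poor aged libraries with 1 and 2 young ones, gave 0 genes in limma (0.0%), with 466 at an unadjusted p under 0.05 (3.45%), of which 32 were among the 462 and 4 among the 38. The smallest adjusted p was 0.894. edgeR and DESeq2 also gave 0, with 519 and 660 genes at an unadjusted p under 0.05. Cdhr1 was 1.91 ± 0.86 (SE) higher in aged than in young performing rats on the log2 scale and did not pass, with a limma adjusted p of 0.894.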

How the data were processed

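RNA was extracted with a column kit and made into stranded mRNA libraries, per the labels' protocols. Per the submitters' processing notes, Trimmomatic, Bowtie2, TopHat2, HTSeq and DESeq2 were used with Rnor_6.0; versions and the strand setting of the counting are not given in the sources used here. The deposited table holds 1 normalized read count signal per gene and library (15939 genes), and in each library 100.0% of values were whole multiples of 1 step within 0.01 of a read, so whole reads were recovered. No pair of libraries agreed within sampling noise (chi-square per degree of freedom 6.9 to 438.4). The sides, the members and the 20 gene lists (233 genes, 205 past the filter) were chosen with earlier results of these data known.

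Values were used as log2(value + 1) after a filter of 10 in at least 3 of 12 libraries. limma 3.58.1 in R 4.3.3 with a mean-variance trend fitted 4 group means. The limma step was checked on simulated data. edgeR 4.0.16 and DESeq2 1.42.0 ran on recovered reads. Other alternatives were the pseudocount (0.5, 5), the filter, TMM rescaling, the size rule (0.58, 2), 1 age, leaving out each library, and covariates. Named genes were the 15 largest differences in each direction with a mean of at least 50 over the performing libraries, the 10 closest to Cdhr1 with a mean of at least 50 over all libraries, up to 5 per list by size and the most abundant member, the 5 smallest p-values per contrast, and Cdhr1 and Th. Other list members and families named were chosen after their values were seen. Promoter stretches came from RefSeq, 1 per symbol. Some genes are not reported here.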

Additional observations from a re-analysis of the deposited data

Results flagged for a closer look

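Among the named genes, 6 had a difference of at least 1 on the log2 scale in each age and in opposite directions, every bulb-rich value lying on one side of the bulb-poor values in young libraries and on the other side in aged libraries. The difference between ages was not tested. For Cd74 the bulb-rich minus bulb-poor difference on the log2 scale was 1.13 in young and -5.52 in aged libraries. For the MHC class II genes RT1-Da, RT1-Ba and RT1-Db1 it was 1.15, 1.9 and 1.12 in young and -5.8, -6.15 and -6.07 in aged libraries. These 4 genes were at 38920, 12670, 6895 and 7267 normalized reads in AP2, the only aged bulb-poor library. RT1 genes have near-identical copies, so their split between symbols is uncertain. For Scin the difference was 3.07 in young and -1.35 in aged libraries, with 265.7 normalized reads in AP2. For Ttr it was -1.17 in young and 2.0 in aged libraries, with AP3 at 91.88 and AP1 at 10.27 against AP2 at 7.116.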

How the results depend on the processing

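The count of genes higher in bulb-rich libraries, 462, was 234 with a mean of at least 50, 841 and 129 with log2 differences of at least 0.58 and 2, and 781 without YP3 and AP2, an alternative chosen after seeing the data; leaving out each performing library gave 410 to 675. The count of lower genes, 38, was 67 with no filter, 21 with a mean of at least 50, 92 in young and 343 in aged libraries only, 266 and 2 with log2 differences of at least 0.58 and 2, 83 without YP3 and AP2, and 42 to 77 without each library. For performance, the count of 0 in limma was 114 with DESeq2, 1 at a threshold of 0.1, and 0 to 2 without each library (2 without YP1, 1 without YP2). For age in performing rats it was 0 under each alternative. Of 260 list medians under the alternatives, 251 stayed within the spread of the libraries, 9 moved beyond it and 0 were labelled reversed. Of 1885 values of named genes the counts were 1820, 65 and 0. A change of sign alone was not labelled reversed. The antigen presentation median was -0.85 with all 6 performing libraries and 1.12 in young ones. Cd74 was at -0.82 and 1.13, and the blood median was -0.56 with all 6 and 0.66 in aged ones. The cause of these changes was not tested, beyond fewer genes or libraries entering. With 3 libraries a side, an aged bulb-poor side of 1 library and a bulb-poor side spread over Cdhr1 from 296.6 to 1866, the size of single differences is loosely set. No paired analysis was possible because labels tie no library of one group to another and numbers were given in sample order.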

Other observations

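Gene families were grouped by symbol after the values were seen, so their counts are a description. Of all genes tested, 3.42% were counted higher and 0.282% lower. At any size of difference 13% lay above and 15.2% below. Of 37 collagen genes past the filter, 7 were counted higher and 0 lower, with a median difference of 0.65. Col8a2, a basement membrane collagen, was at 198.7, 132.3 and 192.7 normalized reads in YP2, AP1 and AP3 and at 18.72, 82.75 and 27.28 in YP1, YP3 and AP2. Of 5 secreted frizzled-related genes 3 were counted higher, Frzb, Sfrp1 and Sfrp5, with a median of 1.72. Sfrp1 was at 683.6, 522.6 and 771.6 against 120.2, 205 and 208.7. Of 15 Wnt ligands 3 were counted higher, Wnt2b, Wnt5a and Wnt6, and 3 lay below at any size. Of 8 insulin-like growth factors and their binding proteins 4 were counted higher, among them Igfbp2 at 1979, 1397 and 2036 against 196.1, 800.1 and 507.6, where 1 nonperforming library also reached 1979.

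The same shares over all genes, 3.42% counted higher and 0.282% lower, apply to the families that follow. Nothing is read from the family counts above or below. Of 22 glutamate receptor genes 0 were counted in either direction, with 4 lying below at any size, and of 15 GABA-A receptor subunits 0 were counted, with 1 above and 4 below at any size. Of 79 potassium channel genes 6 were counted higher and 2, Kcns1 and Kcns3, lower. Of 273 solute carriers 21 were counted higher and 0 lower. All 3 Dlx homeobox genes past the filter were counted higher, as were 2 of 6 Meis and Pbx genes, Meis1 and Pbx3.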
